A study of Mus musculus with 13 samples.

Results

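The change in thymic stromal expression 1 day after sublethal total body irradiation (TBI) was described across all genes and 55 gene lists. Bulk RNA-seq libraries were made from polyA RNA of CD45- thymic cells, the sorted fraction that should hold thymic epithelial cells (TECs), fibroblasts and endothelial cells and lack leukocytes. All mice were wild type C57BL/6 and 2 months old, and 7 of the 13 libraries of the series were compared: 3 at day 1 after TBI, and 4 at steady state. Steady-state mice are given as untreated in the labels, but their columns in the count table are named for phosphate-buffered saline (PBS) and days 1, 4 and 7. The other 6 libraries, 3 each from days 4 and 7 after TBI, entered the fit to share its estimate of the spread.

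Radiation breaks DNA, and the p53 pathway then raises genes for cell-cycle arrest, apoptosis and repair. Thymocytes are among the most radiation-sensitive cells of the body, so the stroma that survives TBI lies beside many dying cells. Type I and type III interferons signal to promoters with an interferon-stimulated response element (ISRE), and interferon-γ raises an overlapping set of genes. IL-6 and IL-1 are known to raise acute-phase proteins, a secreted set best studied in the liver. The stroma also makes the collagens, laminins and proteoglycans that hold the organ together, and the cytokines on which T cell development and thymic repair depend.

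Total counts ran from 22501215 to 48419232 at steady state and from 23727878 to 47606045 at day 1, and mitochondrial transcripts took 0.83% to 3.94% and 1.05% to 1.63% of them. Expression is given as CPM, counts scaled to the TMM-normalized size of each library. Values are listed in the fixed order PBS day 1 replicate 2, PBS day 4 replicate 2, PBS day 7 replicate 1 and PBS day 7 replicate 2, and then day 1 replicates 1, 2 and 3. Day 1 replicate 1 stood apart. Across genes its log-CPM correlated at 0.909 to 0.943 with the other 6 libraries, whereas day 1 replicates 2 and 3 correlated at 0.993 with each other. Its ribosomal-protein transcripts took 1.55% of the counts, against 0.45% to 0.94% in the other 6. Column names end in an unexplained tag, which starts with m in PBS day 1 replicate 2, PBS day 7 replicate 1 and day 1 replicates 2 and 3, with kk in PBS day 7 replicate 2 and day 1 replicate 1, and with k3 in PBS day 4 replicate 2. The labels do not say that replicates came from separate mice, so p-values measure the spread between these libraries.

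The labelled cell type was checked against its markers. Epcam, the epithelial adhesion molecule, had 155, 33.4, 109 and 36.7 CPM at steady state and 14, 103 and 127 CPM at day 1. The fibroblast receptor gene Pdgfra had 677, 659, 884 and 756 CPM at steady state and 1282, 837 and 771 CPM at day 1. The endothelial gene Pecam1 had 308, 237, 292 and 222 CPM at steady state and 432, 279 and 274 CPM at day 1, so all 3 stromal lineages were present in every library. Ptprc, which encodes CD45 itself, was not absent, with 119, 24, 105 and 38.3 CPM at steady state and 15, 12.7 and 12.9 CPM at day 1. Thymocyte and erythroid transcripts were likewise present and lower at day 1, and their values are given beside the results they move with. In such bulk libraries, fewer cells of a type and less RNA per cell cannot be told apart.

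Of 19984 genes tested, 335 rose (1.68%) and 134 fell (0.671%) at an adjusted p of 0.05 or less (edgeR quasi-likelihood test). The median log2 fold change was 1.8 among genes that rose, -1.64 among genes that fell and -0.1 over all genes tested. Rises of 2 or more on the log2 scale numbered 147, and 51 genes fell by 2 or more. All 469 changed genes had day 1 libraries that did not overlap the steady-state libraries, a pattern seen upward in 7.25% and downward in 8.56% of all genes tested. Without day 1 replicate 1, 198 genes rose and 54 fell, and without PBS day 4 replicate 2, 552 rose and 245 fell. Of the 335 genes that rose, 311 were protein-coding and 82 belonged to an interferon list, out of 136 genes tested in those lists. Leaving aside the 3 interferon families assembled after their members were seen among the rises, 69 of 117 rose. The remaining interferon lists were also chosen with earlier results of these data known.

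**Figure D1:**
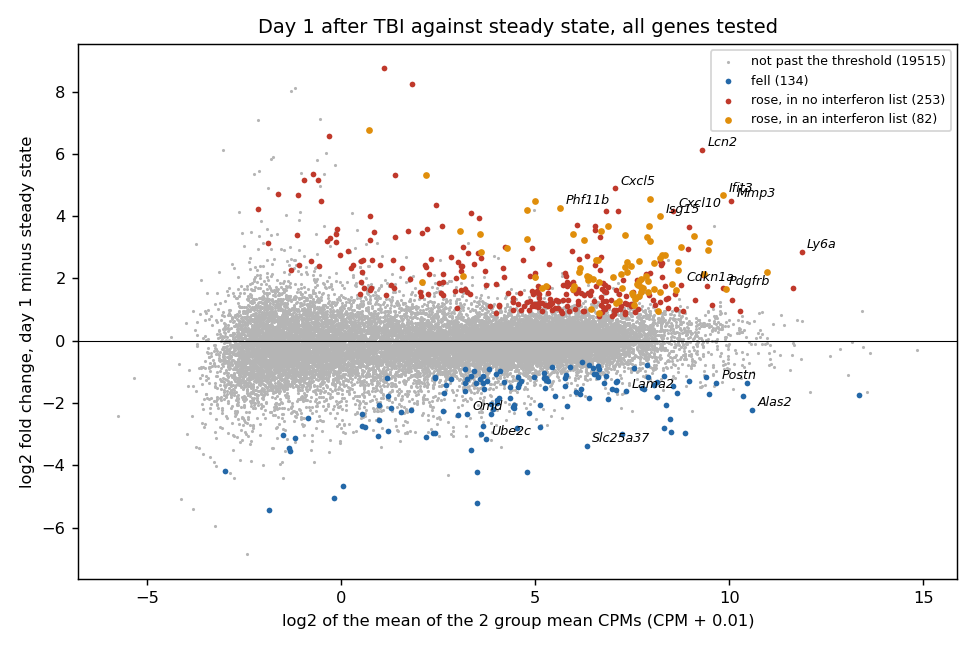
Log2 fold change of day 1 over steady state (vertical axis) against mean expression (horizontal axis, log2 CPM) for 19984 genes, each a point, coloured by whether it rose, fell or did not pass an adjusted p of 0.05. The 82 orange points are interferon-list genes that rose, and interferon-list genes that did not pass are grey.

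Lists were read by how many of their tested members rose or fell, beside the 1.68% and 0.671% of all genes. Among the lists not assembled from the changed genes, type I interferon-stimulated genes and interferon-inducible GTPases had the largest shares of members that rose. Even these lists were chosen with earlier results of these data known, so the ranking is a description. Chemokines, acute-phase proteins and p53 targets had smaller shares, and the lists of collagens, TEC subsets, growth factors and cholesterol synthesis had no member that rose. The erythroid list had the most members that fell. Thymocyte and mitotic genes were lower almost throughout, but few of them passed the threshold.

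**Figure D2:**
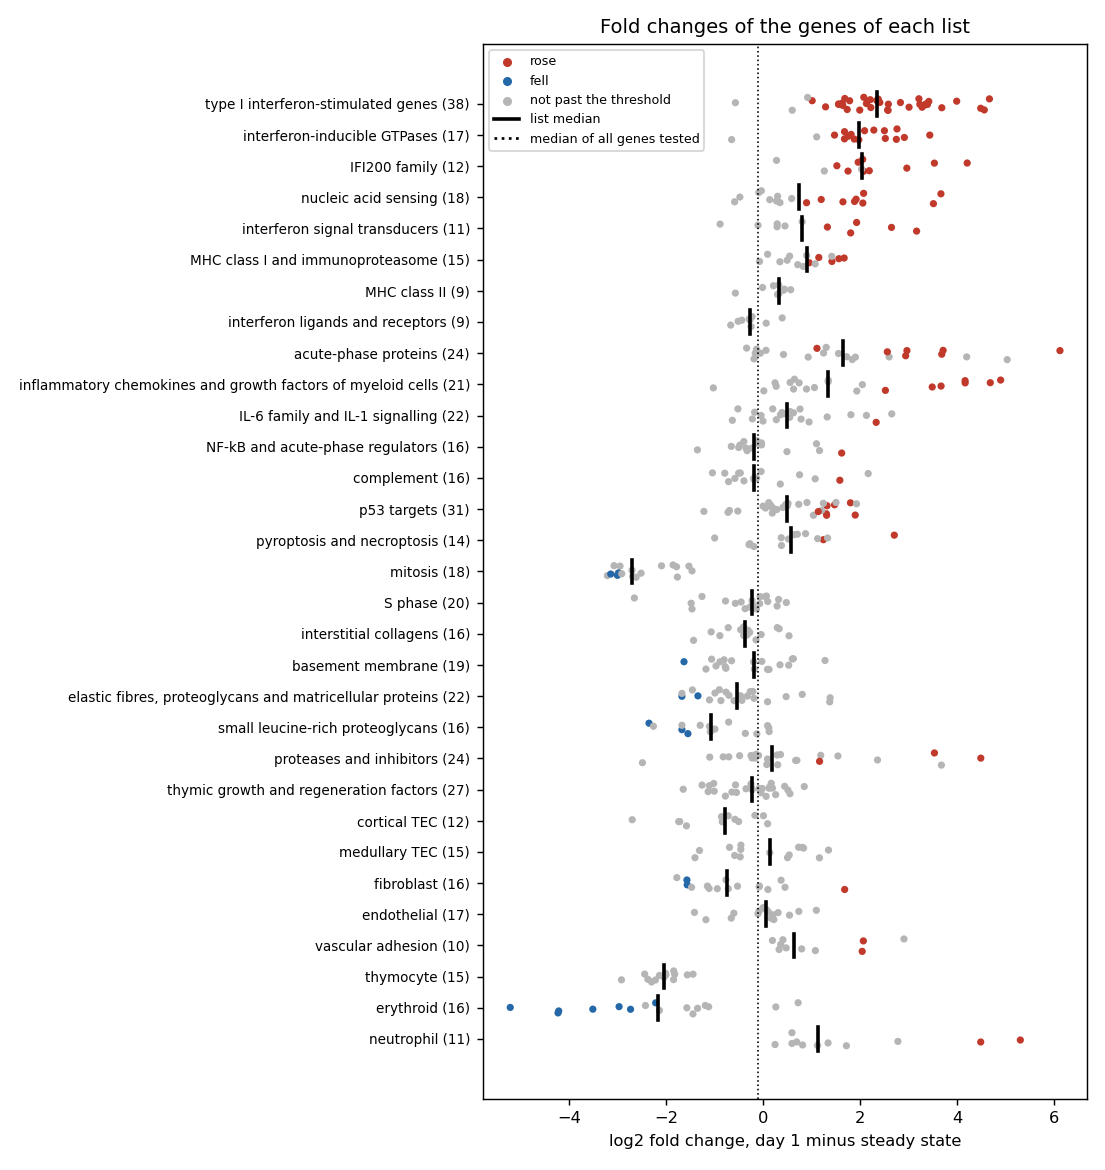
Log2 fold change of day 1 over steady state (horizontal axis) for every tested gene of 31 lists (rows, with the number tested in brackets), in red where it rose, blue where it fell and grey otherwise. Black bars are list medians and the dotted line is the median of all genes tested, -0.1. The interferon-stimulated genes lie to the right at a median of 2.36, whereas mitotic, thymocyte and erythroid genes lie to the left at -2.69, -2.03 and -2.17.

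In the list of type I interferon-stimulated genes nearly all rose, against 82 of 136 genes tested over all interferon lists. Of 38 type I interferon-stimulated genes tested, 35 rose, none fell, and the median log2 fold change was 2.36. Their summed level was 3799.7, 3572, 3438 and 3523 CPM at steady state and 26177, 13683 and 12709 CPM at day 1, and every day 1 library lay above the highest control. Ifit3 (ENSMUSG00000074896, chr19:34583531-34588731, plus strand), an antiviral gene of the IFIT family, had 81.4, 66.1, 65.2 and 65 CPM at steady state and 2781, 1232 and 1279.7 CPM at day 1 (log2 fold change 4.67 ± 0.31, adjusted p = 2.29e-05). Isg15, a ubiquitin-like modifier, had 41.1, 35.4, 29.3 and 34.3 CPM at steady state and 927, 379 and 366 CPM at day 1 (log2 fold change 3.99 ± 0.31, adjusted p = 4.32e-05). Mx1, an antiviral GTPase, had 4.93, 1.28, 2.52 and 2.03 CPM at steady state and 96.1, 41.3 and 44.6 CPM at day 1 (log2 fold change 4.49 ± 0.58, adjusted p = 0.000916). The 2',5'-oligoadenylate synthetase family member Oasl1 had 19.3, 22.6, 13.7 and 11.5 CPM at steady state and 327, 156 and 166 CPM at day 1 (log2 fold change 3.69 ± 0.34, adjusted p = 0.000101). In each of these 4 genes day 1 replicate 1 was the highest library, and no library of one condition reached the other. Without it, Ifit3 was higher by 4.18 (adjusted p = 1.77e-06) and Isg15 by 3.42 (adjusted p = 1.77e-06), and 32 of the 38 genes still rose. Rsad2, which encodes viperin, was a weaker member at 249.5, 118, 237 and 161 CPM at steady state and 977, 363 and 442 CPM at day 1 (log2 fold change 1.63 ± 0.39, adjusted p = 0.0467). When each of the 7 libraries was left out in turn, Rsad2 passed the threshold in 2 of the 7 leave-outs, where the highest adjusted p was 0.239 without day 1 replicate 1. The 3 members that did not pass were Slfn5, Epsti1 and Isg20, the last with a log2 fold change of -0.57.

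Interferon-inducible GTPases, which act on membranes around intracellular pathogens and are known as targets of interferon-γ as well as type I interferon, rose in 15 of 17 (median 1.98; 13 without day 1 replicate 1). Igtp had 84.8, 77.8, 72.1 and 84.4 CPM at steady state and 819, 387 and 402 CPM at day 1 (log2 fold change 2.75 ± 0.26, adjusted p = 0.000117), Iigp1 had a log2 fold change of 2.91 ± 0.29, and Gbp2 one of 1.82 ± 0.32. Among 18 nucleic acid sensing genes, 9 rose. Zbp1, a sensor of Z-form nucleic acids that can start necroptosis, had 33.3, 41.4, 33 and 35.3 CPM at steady state and 686, 374 and 304 CPM at day 1 (log2 fold change 3.67 ± 0.3, adjusted p = 6.28e-05). The RIG-I-like receptor genes Dhx58, Ddx58 and Ifih1 rose by 3.51, 1.92 and 1.89 on the log2 scale. The cytosolic DNA sensor gene Cgas did not pass at 3.95, 4.18, 4.37 and 4.31 CPM at steady state and 1.27, 4.13 and 3.67 CPM at day 1, a log2 fold change of -0.48 ± 0.47 (adjusted p = 0.64). Its partner Tmem173, which encodes STING, rose by 0.9 (adjusted p = 0.0435) and kept its call in 2 of the 7 leave-outs, where the highest adjusted p was 0.181 without day 1 replicate 1.

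Of 11 signal transducers of the pathway, 5 rose. Among them Stat2 (111, 52.7, 94.4 and 89.6 CPM at steady state and 297, 331 and 283 CPM at day 1), Irf9 and Irf7 rose by 1.81, 1.33 and 3.17 on the log2 scale, as did the feedback inhibitor gene Usp18 by 2.65. Irf7, which amplifies interferon-α production, had 131, 228, 109 and 101 CPM at steady state and 1759, 1149 and 924 CPM at day 1 (log2 fold change 3.17 ± 0.32, adjusted p = 0.000139). Irf1, a primary target of interferon-γ, had a log2 fold change of 0.29 ± 0.25 (adjusted p = 0.587). None of the 9 tested genes of the interferon receptors and their kinases rose or fell. The receptor gene Ifnar1 had 107, 120.3, 127 and 136 CPM at steady state and 114, 148 and 122 CPM at day 1. Interferon transcripts themselves were at the limit of detection. Ifnb1 had 11 raw counts in total over the 4 steady-state libraries and 3 over the 3 day 1 libraries, all 13 Ifna genes together had 4 and 8, and Ifng had 10 and 33. None of these genes held enough counts to be tested.

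Antigen presentation moved in part. Of 15 class I and immunoproteasome genes, 5 rose (2 without day 1 replicate 1, which lowered the list median from 0.9 to 0.64). Tap1, the peptide transporter gene, had 157, 113, 133 and 103 CPM at steady state and 334, 432 and 445 CPM at day 1 (log2 fold change 1.67 ± 0.21, adjusted p = 0.000622), and the immunoproteasome gene Psmb8 rose by 1.56 ± 0.24. Psmb10, another immunoproteasome gene, rose by 1.42 and kept its call in 4 of the 7 leave-outs, where the highest adjusted p was 0.0702 without day 1 replicate 1. The class I heavy chain gene H2-K1 had 2062, 1837, 1799.5 and 2089 CPM at steady state and 1481, 2213 and 2544 CPM at day 1, with day 1 replicate 1 the lowest of the 7 libraries. No class II gene of 9 passed, and the class II heavy chain gene H2-Ab1 ranged from 356 to 1642 CPM within steady state alone.

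Families that were assembled after their members were seen among the rises are given as counts. In the IFI200 family, whose members bind DNA, 9 of 12 rose (5 without day 1 replicate 1), among them Ifi206 (4.69, 1.8, 3.25 and 1.55 CPM at steady state and 72.9, 46.3 and 38.7 CPM at day 1). Phf11a, Phf11b and Phf11d rose out of 4 Phf11 genes, and Slfn4, Slfn8, Slfn2 and Slfn9 out of 8 Schlafen genes. Slfn4 had 0, 0.050, 0.0215 and 0.0484 CPM at steady state and 3.62, 2.46 and 3.69 CPM at day 1. Near-identical neighbours such as Ifit3 with Ifit3b, Oas1a with Oas1g and the IFI200 genes can share or lose reads in counting, so their separate values are uncertain. Olfr56 (chr11:48978889-49135387) also rose (log2 fold change 3.93 ± 0.63, adjusted p = 0.00411; 4.74 without PBS day 4 replicate 2), and its annotated span overlaps Ifi47, so their reads may not be told apart.

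Promoters of these genes were read for the ISRE core, because the list of rises was led by interferon targets. The letters searched were GAAA, any 2 bases and then GAAA, on both strands of RefSeq promoters (GRCm38.p6, 250 bases before to 50 after each start, several per gene where annotated). They occurred in 535 of 13599 tested genes with a promoter (3.93%), in 67 of 242 such genes that rose (27.7%) and in 2 of 95 that fell (2.11%). By list, the share was 9 of 10 interferon-inducible GTPases and 13 of 30 type I interferon-stimulated genes, against 1 of 21 acute-phase proteins, 1 of 23 p53 targets and 0 of 15 mitotic genes. A second motif, GGG, any 3 bases and then TTCC, a core of κB sites for NF-κB, was searched in the same way and occurred in 7.27% of tested genes, 12.8% of those that rose and 6 of 12 chemokine genes. A match is a description of letters and not of a bound site, and no match says only that these letters are not in this window. The stretches below, read 5′ to 3′ on the strand of the gene, show the motif in genes that rose, with matched bases in capitals.
Ifit3 (chr19:34583363-34583426, plus strand, bases 166 to 103 upstream of the start): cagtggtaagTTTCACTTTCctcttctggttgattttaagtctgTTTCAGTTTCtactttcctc
Ifit1 (chr19:34640775-34640823, plus strand, bases 114 to 66 upstream of the start): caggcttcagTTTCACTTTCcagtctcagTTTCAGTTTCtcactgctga
Isg15 (chr4:156200865-156200906, minus strand, bases 88 to 47 upstream of the start): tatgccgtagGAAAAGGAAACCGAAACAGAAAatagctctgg
Igtp (chr11:58199512-58199541, plus strand, bases 44 to 15 upstream of the start): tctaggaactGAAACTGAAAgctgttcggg
Gbp2 (chr3:142620594-142620623, plus strand, bases 69 to 40 upstream of the start): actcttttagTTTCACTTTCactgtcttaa
Ifi206 (chr1:173491339-173491368, minus strand, bases 50 to 21 upstream of the start): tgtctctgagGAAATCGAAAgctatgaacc
Phf11b (chr14:59341361-59341390, minus strand, bases 60 to 31 upstream of the start): cacatttagaGAAAAAGAAActagaaacta
Stat2 (chr10:128270266-128270295, plus strand, bases 232 to 203 upstream of the start): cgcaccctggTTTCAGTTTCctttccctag
Cxcl10, ISRE core (chr5:92349083-92349112, minus strand, bases 223 to 194 upstream of the start): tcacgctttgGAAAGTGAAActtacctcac
Cxcl10, κB core (chr5:92349029-92349058, minus strand, bases 169 to 140 upstream of the start): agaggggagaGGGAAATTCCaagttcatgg
Cxcl10, second κB core (chr5:92348974-92349003, minus strand, bases 114 to 85 upstream of the start): tcggtttacaGGGGACTTCCctcgggttgc
Ifit3 and Ifit1 each held 2 separate ISRE cores and Isg15 held 3 that overlap. The Ifit3b promoter held the same letters as the Ifit3 stretch. Cxcl10, a chemokine gene known to answer both interferon and NF-κB, held 1 ISRE core and 2 κB cores within 223 bases of its start.

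Acute-phase genes rose in a subset that differed widely in size. Of 24 tested, 7 rose (Lcn2, Mt2, Saa2, Saa1, Serpina3n, Mt1 and Cd14). None fell, and 12 were higher in all 3 day 1 libraries, against 7.25% of all genes tested. Without day 1 replicate 1, 5 rose, and over the 17 alternative settings 4 to 13 did. The list median was 1.64. Lcn2 (ENSMUSG00000026822, chr2:32384633-32388252, minus strand), which encodes the iron-siderophore binding protein lipocalin 2, had 12, 37.7, 13.1 and 8.04 CPM at steady state and 2063, 907 and 736 CPM at day 1 (log2 fold change 6.12 ± 0.68, adjusted p = 0.000275). The protease inhibitor gene Serpina3n had 87.7, 231, 69.2 and 60.1 CPM at steady state and 1014, 959 and 605 CPM at day 1 (log2 fold change 2.94 ± 0.48, adjusted p = 0.00469). The metallothionein gene Mt2 had 6.75, 16.8, 3.81 and 11.1 CPM at steady state and 233, 75.1 and 69.9 CPM at day 1 (log2 fold change 3.71 ± 0.53, adjusted p = 0.00185). Each of these was higher in all 3 day 1 libraries than in any control. Over the 7 leave-outs the log2 fold change moved most to 6.8 without PBS day 4 replicate 2 for Lcn2, 3.57 without PBS day 4 replicate 2 for Serpina3n and 2.92 without day 1 replicate 1 for Mt2. Saa3, a serum amyloid A gene made outside the liver, had 20.9, 258, 8.43 and 13.5 CPM at steady state and 3784, 2058 and 1546 CPM at day 1. Every day 1 library lay above every control, but the difference did not pass (log2 fold change 5.03 ± 1.29, adjusted p = 0.0636). PBS day 4 replicate 2, the library with the highest Saa3 among the controls, was also their highest for Hp (307 CPM) and Timp1 (385 CPM). Without it, Hp had a log2 fold change of 4.41 (adjusted p = 0.0179), and Saa3 was higher by 7.43 on the log2 scale (adjusted p = 0.00516). C3, the central complement gene, had overlapping groups at 7344, 10329, 14547 and 14910.0 CPM at steady state and 9909.9, 11799 and 9353 CPM at day 1 (log2 fold change -0.19 ± 0.35), and the liver fibrinogen genes Fga, Fgb and Fgg had log2 fold changes of -0.13, -0.34 and -0.16 without passing.

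Genes of IL-6 family and IL-1 signalling were mostly not called, and their part in the acute-phase rises was not tested. Of 22, 7 were higher in all 3 day 1 libraries than in every control and 1 was lower. Over all genes tested these shares were 7.25% and 8.56%. In the IL-6 and IL-1 list 1 of 22 rose, Il1b, at 2.04, 0.3, 0.947 and 0.581 CPM at steady state and 4.98, 3.39 and 6.41 CPM at day 1 (log2 fold change 2.33 ± 0.56, adjusted p = 0.048), and it passed in 2 of the 7 leave-outs, where the highest adjusted p was 0.135 without PBS day 7 replicate 2. Il6 had 9.12, 6.88, 0.775 and 1.07 CPM at steady state and 44.6, 23 and 17.1 CPM at day 1. All 3 day 1 libraries exceeded the 4 controls, but the log2 fold change of 2.65 ± 0.72 did not pass (adjusted p = 0.0809). Without PBS day 1 replicate 2, Il6 was at 3.32 (adjusted p = 0.046) and Il1b at 3.05 (adjusted p = 0.00759). Il19, an IL-10 family cytokine gene in no list, rose, was at 0 in 3 of 4 steady-state libraries and had 0, 0, 0 and 0.0484 CPM at steady state and 5.54, 4.13 and 3.25 CPM at day 1. Of 16 NF-κB targets and regulators, 1 rose, the mitochondrial superoxide dismutase gene Sod2, at 63.7, 79.8, 59.6 and 64.5 CPM at steady state and 213, 209 and 196 CPM at day 1 (log2 fold change 1.62 ± 0.16, adjusted p = 0.000139). The inhibitor genes Nfkbia (-0.48 ± 0.33) and Tnfaip3 (-1.35) lay below 0 without passing. Cebpd had 5.37 CPM in day 1 replicate 1 against 188 and 138 CPM in the other day 1 libraries.

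Several chemokines that recruit myeloid cells rose. Of 21 chemokine and myeloid growth factor genes, 7 rose (Cxcl5, Csf3, Ccl7, Cxcl10, Ccl2, Ccl3 and Ccl8; 4 without day 1 replicate 1), and the list median was 1.34. Ccl2, the main chemokine for monocytes, had 9.41, 31.1, 7.14 and 6.78 CPM at steady state and 262, 119 and 139.8 CPM at day 1 (log2 fold change 3.67 ± 0.53, adjusted p = 0.00185). Its neighbour Ccl7 had 14.5, 29.5, 7.7 and 7.8 CPM at steady state and 423, 178 and 202 CPM at day 1 (log2 fold change 4.17 ± 0.49, adjusted p = 0.000414). Cxcl5, a ligand of the neutrophil receptor CXCR2, had 3.46, 20.1, 7.34 and 3.53 CPM at steady state and 397, 237 and 138 CPM at day 1 (log2 fold change 4.9 ± 0.66, adjusted p = 0.00112). Cxcl10 had 88.9, 20.7, 29.2 and 19.3 CPM at steady state and 1142, 434 and 554 CPM at day 1 (log2 fold change 4.17 ± 0.54, adjusted p = 0.000916). Over the 7 leave-outs the log2 fold change moved most to 4.48 without PBS day 4 replicate 2 for Ccl2, 5.75 without PBS day 4 replicate 2 for Cxcl5 and 5.0 without PBS day 1 replicate 2 for Cxcl10. Over the 17 alternative settings 4 to 10 of the list rose. The other members did not pass. Another CXCR2 ligand gene, Cxcl1, had 27.5, 29.2, 6.91 and 16.4 CPM at steady state and 42.2, 28.2 and 22.4 CPM at day 1 with overlapping groups (log2 fold change 0.63 ± 0.43), and Cxcl9, an interferon-γ target, had a log2 fold change of 0.74 ± 0.28 (adjusted p = 0.197). Neutrophil markers were low, with 2 of 11 rising (Csf3r and Cxcr2) and a summed level of 31.7, 11.5, 15.5 and 6.88 CPM at steady state and 51.1, 30.4 and 35.3 CPM at day 1, so that the groups overlapped. Their part in the chemokine and acute-phase results was not tested. Csf3r, the receptor for granulocyte colony-stimulating factor, had 0.285, 0.075, 0.0646 and 0.0484 CPM at steady state and 4.84, 4.41 and 5.91 CPM at day 1 (log2 fold change 5.3 ± 0.66, adjusted p = 0.000707; 6.27 without PBS day 1 replicate 2), while the granule gene S100a8 overlapped between the groups at 8.33, 0.825, 2.99 and 1.69 CPM at steady state and 11.8, 4.55 and 6.33 CPM at day 1, and Ly6g was at most 3.68 CPM in the 7 libraries.

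**Figure D3:**
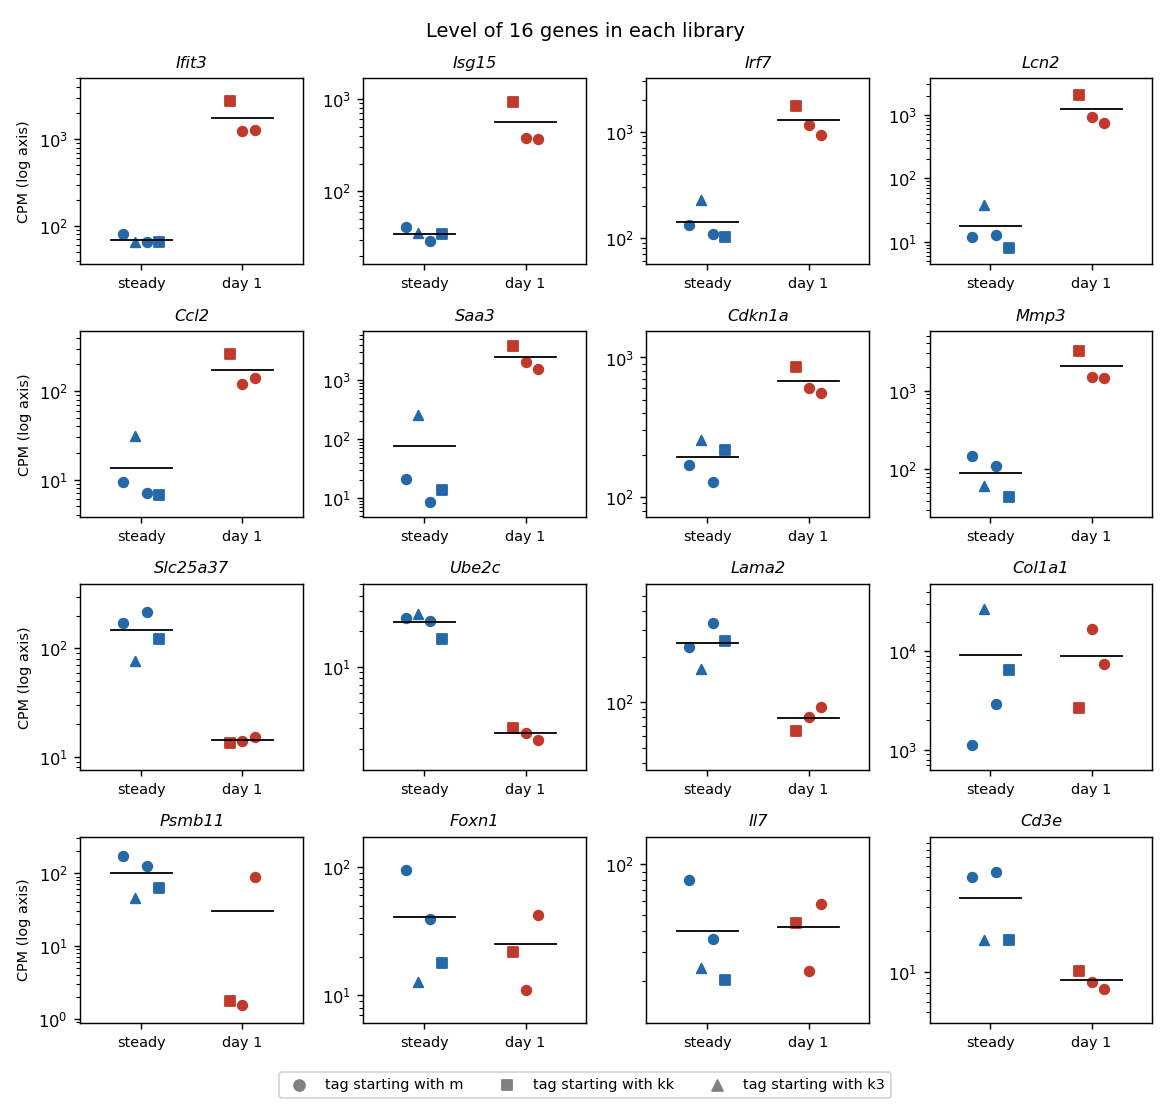
CPM (log axis) of 16 genes in the 4 steady-state libraries (blue) and the 3 day 1 libraries (red), each symbol a library shaped by its column tag, with bars at group means. Ifit3 rises from 65.0 to 81.4 CPM to at least 1232 CPM without overlap, whereas Col1a1 and Psmb11 spread more within a group than between them.

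Some p53 targets rose. Of 31 p53 targets, 7 rose (Eda2r, Cdkn1a, Bax, Aen, Ccng1, Sesn2 and Dcxr) and none fell, with a median log2 fold change of 0.5. Over the 17 alternative settings 3 to 12 rose. Their summed level was 2664, 3005, 2237 and 2474 CPM at steady state and 4733, 4334 and 4334 CPM at day 1. Cdkn1a (ENSMUSG00000023067, chr17:29090979-29100722, plus strand), which encodes the cell-cycle inhibitor p21, had 169.5, 258, 129 and 217 CPM at steady state and 855, 609 and 559 CPM at day 1 (log2 fold change 1.8 ± 0.31, adjusted p = 0.00694). Bax, an apoptosis effector gene, had 45.4, 57, 31.5 and 45.3 CPM at steady state and 139, 114 and 121 CPM at day 1 (log2 fold change 1.47 ± 0.22, adjusted p = 0.00266). The nuclease gene Aen had 31.7, 30.2, 27.5 and 30.7 CPM at steady state and 89.2, 73 and 62.9 CPM at day 1 (log2 fold change 1.32 ± 0.18, adjusted p = 0.00142). Eda2r, a TNF receptor family gene, had 14.8, 44.9, 21.7 and 25.1 CPM at steady state and 119.7, 103 and 75.6 CPM at day 1 (log2 fold change 1.9 ± 0.33, adjusted p = 0.00745). Day 1 libraries were above all controls for these 4 genes, and 8 targets rose without day 1 replicate 1. Mdm2, the negative regulator of p53, was higher in all 3 day 1 libraries at 92.7, 89.6, 72.1 and 79.4 CPM at steady state and 102, 127 and 116 CPM at day 1, but its log2 fold change of 0.47 ± 0.2 did not pass (adjusted p = 0.264). Bbc3, which encodes PUMA, had 14.9, 11.6, 12 and 9.49 CPM at steady state and 2.49, 21.6 and 19.9 CPM at day 1, with day 1 replicate 1 lowest of all, and the log2 fold change was 0.29 ± 0.61. Sesn1, Ddb2, Rrm2b and Xpc, also known p53 targets, lay at -1.22, -0.72, -0.69 and -0.52. All 3 day 1 libraries were below all 4 controls for each of these 4, the negative members of the list, without passing. Over all genes tested, 8.56% had this pattern.

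**Figure D4:**
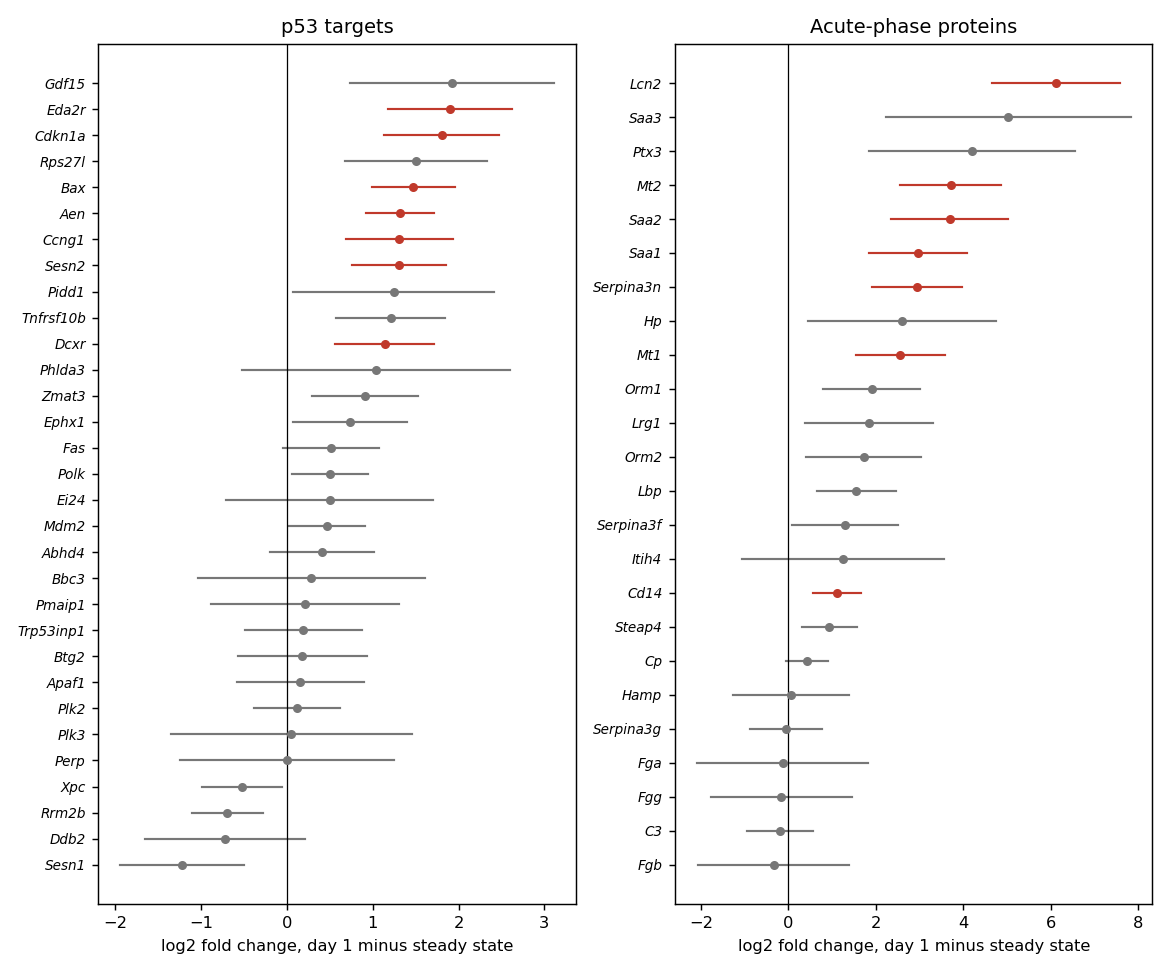
Log2 fold change of day 1 over steady state (horizontal axis) for the 31 p53 targets (left) and 24 acute-phase genes (right) tested, with 95% confidence intervals from the edgeR fit, in red where it rose and grey where it did not pass. Cdkn1a lies at 1.8 and Lcn2 at 6.12, whereas Saa3 at 5.03 has a wide interval and did not pass.

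Genes of inflammatory cell death changed at single members. Mlkl, which encodes the pore-forming effector of necroptosis, had 18.5, 24.7, 18.8 and 23.9 CPM at steady state and 213, 108 and 99.2 CPM at day 1 (log2 fold change 2.71 ± 0.26, adjusted p = 0.000123). Casp4, which encodes caspase-11, rose by 1.24 and passed in 3 of the 7 leave-outs, where the highest adjusted p was 0.182 without day 1 replicate 1. The gasdermin gene Gsdmd was higher in all 3 day 1 libraries (62.5, 62.8, 66 and 75 CPM at steady state and 176, 94.3 and 96.6 CPM at day 1) without passing (log2 fold change 0.88 ± 0.23, adjusted p = 0.0748). Of the other stress lists, 1 of 9 NRF2 targets rose (Hmox1, by 1.5, kept in 5 of the 7 leave-outs, where the highest adjusted p was 0.0775 without day 1 replicate 1), none of 14 unfolded protein response genes, and none of 14 immediate early and heat shock genes. In the glucocorticoid list 2 of 12 rose, Lcn2 and Mt2, which are also in the acute-phase list, and Sult1a1 fell (log2 fold change -1.18 ± 0.26, adjusted p = 0.0308). Sult1a1 kept its call in 1 of the 7 leave-outs, where the highest adjusted p was 0.134 without day 1 replicate 2. The glucocorticoid-induced genes Tsc22d3 and Fkbp5, which respond to adrenal stress hormones, gave no call: Tsc22d3 had 338, 203, 226 and 274 CPM at steady state and 192, 147 and 129 CPM at day 1 (log2 fold change -0.74 ± 0.25, adjusted p = 0.149), and Fkbp5 had a log2 fold change of 0.03 ± 0.4.

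Mitotic genes were lower in nearly every member, though few were called. In the mitosis list 17 of 18 genes were below all controls in all 3 day 1 libraries, against 8.56% of all genes tested. The median log2 fold change was -2.69, but 3, Ube2c, Nusap1 and Birc5, fell at the threshold. None did without day 1 replicate 1, and 0 to 15 did over the 17 alternative settings, with 13 in DESeq2 and 15 with only libraries with a tag starting with m. The summed level was 176, 356, 249.9 and 135 CPM at steady state and 31, 47.6 and 47.9 CPM at day 1. Ube2c, which loads ubiquitin for the anaphase-promoting complex, had 25.9, 27.9, 24.2 and 17.2 CPM at steady state and 3.0, 2.74 and 2.37 CPM at day 1 (log2 fold change -3.14 ± 0.61, adjusted p = 0.0142), with its call kept in 4 of the 7 leave-outs, where the highest adjusted p was 0.0705 without day 1 replicate 1. Nusap1, a spindle protein gene, kept its call in 3 of the 7 leave-outs, where the highest adjusted p was 0.102 without day 1 replicate 2, and Birc5, which encodes survivin, in 0 of the 7 leave-outs, where the highest adjusted p was 0.216 without day 1 replicate 1. Mki67 had 9.21, 6.65, 16.6 and 6.0 CPM at steady state and 0.792, 2.09 and 1.63 CPM at day 1 (log2 fold change -2.69 ± 0.86, adjusted p = 0.133). None of 20 S phase genes was called (median -0.22). Mcm5, a replicative helicase gene, had 25, 39.5, 31.5 and 18.6 CPM at steady state and 34.8, 19.1 and 20.05 CPM at day 1. Rrm2, which encodes a ribonucleotide reductase subunit, was below all controls at 17.4, 37, 31.3 and 14.8 CPM at steady state and 2.77, 3.67 and 5.51 CPM at day 1 (log2 fold change -2.65 ± 0.7, adjusted p = 0.0713), as were Cdc6 and Ccne2. The difference between the S phase and mitosis lists was not tested. Thymocyte transcripts moved in the same direction as the mitotic genes, at 750.3, 299, 958 and 334 CPM at steady state and 172, 161 and 138 CPM at day 1 summed over 15 genes, and so did erythroid ones. Their part in the lower mitotic level was not tested.

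Some genes of protein production and turnover rose. In lists assembled after these genes were seen among the rises, 6 of 35 constitutive proteasome subunits rose and 25 were higher in all 3 day 1 libraries (median 0.81; 2 rose without day 1 replicate 1 and 0 to 23 over the 17 alternatives). Over all genes tested, 7.25% were higher in all 3 day 1 libraries. Psmd11 had 75.8, 83.8, 68.4 and 68.1 CPM at steady state and 183, 131 and 133 CPM at day 1 (log2 fold change 1.01 ± 0.17, adjusted p = 0.00698). Of 20 cytosolic aminoacyl-tRNA synthetases, which charge tRNAs for translation, 4 rose (median 0.57; 1 without day 1 replicate 1), including Aars by 1.15 ± 0.19. Of 18 asparagine-linked glycosylation genes 3 rose, among them the mannosyltransferase gene Alg3 at 15.6, 28.4, 16.6 and 22.1 CPM at steady state and 83.4, 49.97 and 44.4 CPM at day 1 (log2 fold change 1.52 ± 0.27, adjusted p = 0.00745). Day 1 replicate 1, with the most ribosomal-protein transcripts, was the highest library for Psmd11, Aars and Alg3. Cholesterol synthesis genes gave no call among 18, with log2 fold changes between -0.66 and 0.49.

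Few matrix genes were called, and their values varied greatly among the controls. None of 16 interstitial collagens rose or fell (median -0.36). Col1a1, the main chain of type I collagen, had 1122, 26605, 2896 and 6459 CPM at steady state and 2673, 16993 and 7409.9 CPM at day 1, and the log2 fold change was -0.04 ± 0.87 (adjusted p = 0.988). The direction differed between column tags. The median difference of the collagens was 0.78 among the libraries with a tag starting with m. It was -1.19 for kk, which compares only day 1 replicate 1 with PBS day 7 replicate 2. Summed collagen was 15830.0, 140310.0, 31183 and 77521 CPM at steady state and 28327, 90063 and 45068 CPM at day 1, and the steady-state libraries held both the lowest and the highest value. Among 19 basement membrane genes, Lama2 (ENSMUSG00000019899, chr10:26980036-27619758, minus strand), which encodes the laminin α2 chain of mesenchyme, fell, with 231, 165, 333 and 255 CPM at steady state and 64.4, 80.3 and 93.8 CPM at day 1 (log2 fold change -1.63 ± 0.28, adjusted p = 0.00617). Col4a1, a basement membrane collagen gene, had 1524, 1038, 1474 and 949 CPM at steady state and 1013, 2767 and 1987 CPM at day 1 (log2 fold change 0.63 ± 0.34, adjusted p = 0.369). Lama2 was lower among the libraries with a tag starting with m (log2 difference -1.67) and in the single kk pair (-1.98).

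Several small proteoglycan genes fell. The genes Omd, Ogn and Ecm2 fell out of 16 in a list assembled after they were seen among the falls (median -1.07; medians of -0.32 among the libraries with a tag starting with m and -1.16 among those with a tag starting with kk). Omd, which encodes osteomodulin, had 17.2, 11.6, 17.4 and 17.7 CPM at steady state and 3.39, 1.49 and 4.42 CPM at day 1 (log2 fold change -2.35 ± 0.41, adjusted p = 0.00709). Ecm2 had 78.9, 119, 87.1 and 148 CPM at steady state and 37, 30.1 and 43.9 CPM at day 1 (log2 fold change -1.55 ± 0.27, adjusted p = 0.00813). Ogn, which encodes osteoglycin, passed in 1 of the 7 leave-outs, where the highest adjusted p was 0.157 without day 1 replicate 2. Dcn, which encodes decorin, had 6140.2, 16066, 7643 and 16961 CPM at steady state and 5185, 5334 and 5824 CPM at day 1, lower in all 3 day 1 libraries without passing (log2 fold change -1.1 ± 0.38, adjusted p = 0.157). Postn, which encodes the matricellular protein periostin, had 931, 1414, 872 and 1410.5 CPM at steady state and 337, 560.3 and 472 CPM at day 1 (log2 fold change -1.34 ± 0.29, adjusted p = 0.0266), with its call kept in 2 of the 7 leave-outs, where the highest adjusted p was 0.13 without day 1 replicate 1. Of 22 elastic fibre, proteoglycan and matricellular genes, Postn and Ogn fell (none without day 1 replicate 1), with a median of -0.53 and median differences of 0.85 among the libraries with a tag starting with m and -1.62 among those with a tag starting with kk. Of 12 ABCA lipid transporter genes, a list assembled after its members were seen among the falls, the chromosome 11 neighbours Abca6, Abca8b and Abca9 fell. Abca8b kept its call in 3 of the 7 leave-outs, where the highest adjusted p was 0.105 without day 1 replicate 2, and Abca9 in 5 of the 7 leave-outs, where the highest adjusted p was 0.0802 without PBS day 7 replicate 1. Abca6 had 70.3 ± 9.75 CPM at steady state (SD, n = 4) and 20.3 ± 6.07 CPM at day 1 (SD, n = 3) (log2 fold change -1.79 ± 0.22, adjusted p = 0.000626).

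Of 24 matrix proteases and inhibitors, 3 rose (Mmp3, Mmp13 and Plaur; 1 without day 1 replicate 1) and none fell. Mmp3, which encodes stromelysin 1, had 146, 61.9, 110.1 and 44.3 CPM at steady state and 3146, 1504 and 1456 CPM at day 1 (log2 fold change 4.49 ± 0.43, adjusted p = 0.000118). Mmp13, a collagenase gene, had 0.855, 0.15, 0.344 and 0.775 CPM at steady state and 10.6, 4.04 and 3.64 CPM at day 1 (log2 fold change 3.53 ± 0.69, adjusted p = 0.0153; 2.87 without day 1 replicate 1) and passed in 5 of the 7 leave-outs, where the highest adjusted p was 0.0924 without day 1 replicate 1. Timp1, which encodes an inhibitor of these proteases, had 11.4, 385, 10.1 and 42 CPM at steady state and 1902, 1267 and 1138 CPM at day 1, and all 3 day 1 libraries exceeded the controls, but the difference did not pass (log2 fold change 3.68 ± 1.09, adjusted p = 0.109). Without PBS day 4 replicate 2, the control with the most Timp1, the log2 fold change was 6.09 (adjusted p = 0.00218). The crosslinking enzyme gene Loxl4 rose by 1.08 ± 0.21 (kept in 6 of the 7 leave-outs, where the highest adjusted p was 0.065 without day 1 replicate 2). Lox itself had 189, 950.2, 317 and 426 CPM at steady state and 101, 1108 and 759 CPM at day 1 with day 1 replicate 1 below all other libraries.

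Thymic growth and repair factors gave no call. None of 27 rose or fell (median -0.22), and 0 to 5 fell over the 17 alternatives. Il7, the main survival cytokine of thymocyte progenitors, had 80.6, 23.8, 35.7 and 20.1 CPM at steady state and 44.6, 23.1 and 58 CPM at day 1 (log2 fold change 0.06 ± 0.45, adjusted p = 0.96, 95% CI -0.9 to 1.03). Fgf7, which encodes keratinocyte growth factor, had 24, 45.4, 17 and 24.6 CPM at steady state and 36.2, 31 and 23.7 CPM at day 1 (95% CI of the log2 fold change -0.54 to 0.79). Bmp4, an endothelial regeneration signal, had 62.5, 19.1, 53.5 and 33.8 CPM at steady state and 28.3, 14.1 and 20.6 CPM at day 1 (log2 fold change -1.01 ± 0.37, adjusted p = 0.188). A p that misses the threshold does not show that these factors were steady.

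Epithelial genes gave no call in any of 4 TEC lists, although cortical genes were uneven. None of 12 cortical TEC genes passed (median -0.78; medians of -1.48 among the libraries with a tag starting with m and -0.61 among those with a tag starting with kk). Psmb11, which encodes the thymoproteasome subunit β5t, had 173, 46.2, 127 and 61.7 CPM at steady state and 1.78, 1.58 and 88.1 CPM at day 1. The cortical protease gene Prss16 had 784, 216, 635 and 256 CPM at steady state and 6.87, 16.9 and 451 CPM at day 1. Day 1 replicates 1 and 2 were thus far below every control for both genes, while day 1 replicate 3 was within the control range, and neither passed (adjusted p = 0.43 and 0.499). Without day 1 replicate 3 both fell, with log2 fold changes of -5.92 (adjusted p = 0.000572) and -5.31 (adjusted p = 0.0123). Foxn1, the transcription factor gene of TEC identity, had 94.6, 12.6, 39 and 18 CPM at steady state and 21.7, 10.9 and 42.3 CPM at day 1. In the medulla Aire had 59, 3.03, 16.2 and 6.78 CPM at steady state and 6.5, 6.97 and 10.7 CPM at day 1, a range within steady state larger than the difference. Krt5 had 524, 159.7, 338 and 170.4 CPM at steady state and 528, 377 and 690.3 CPM at day 1. Pan-TEC genes had a median of 0.28, tuft and other mimetic genes one of 0.15, and none of their genes passed.

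Fibroblast and vascular genes changed at few members. Of 16 fibroblast genes, Pdgfrb rose (303, 618, 341 and 473 CPM at steady state and 1780.3, 1225 and 1176 CPM at day 1, log2 fold change 1.68 ± 0.28, adjusted p = 0.00547), and Penk and Clec3b fell. The fibroblast list leaned downward, with a median of -0.74, 4 genes above 0 and 12 below. None of 12 pericyte and smooth muscle genes passed (median -0.13). The opioid precursor gene Penk had 162, 163, 231 and 259 CPM at steady state and 36.1, 64.4 and 106 CPM at day 1 and kept its call in 2 of the 7 leave-outs, where the highest adjusted p was 0.17 without day 1 replicate 1, and Clec3b did so in 1 of the 7 leave-outs, where the highest adjusted p was 0.209 without day 1 replicate 1. The capsular fibroblast gene Dpp4 had 134, 236, 422 and 421 CPM at steady state and 197, 87 and 127 CPM at day 1 (log2 fold change -1.15 ± 0.38, adjusted p = 0.145). None of 17 endothelial genes passed. Plvap, which encodes a diaphragm protein of capillaries, had 124, 177, 138 and 104 CPM at steady state and 21.5, 508 and 344 CPM at day 1, with day 1 replicate 1 lowest of the 7 libraries and the other day 1 libraries highest. Kdr, which encodes VEGF receptor 2, had 423, 173, 438 and 300.2 CPM at steady state and 89.3, 142 and 211 CPM at day 1 (log2 fold change -1.18 ± 0.36, adjusted p = 0.12). Among 10 adhesion genes of vessels, P-selectin (Selp) and the chemokine-binding receptor gene Ackr1 rose, and neither did without day 1 replicate 1. Both mark venous endothelium. Selp had 7.79, 23.8, 7.83 and 10.02 CPM at steady state and 62.2, 56.4 and 34.6 CPM at day 1 (log2 fold change 2.04 ± 0.39, adjusted p = 0.0136) and kept its call in 4 of the 7 leave-outs, where the highest adjusted p was 0.0624 without day 1 replicate 1, and Ackr1 in 3 of the 7 leave-outs, where the highest adjusted p was 0.119 without day 1 replicate 1. Ly6a, the Sca-1 gene, an interferon-responsive surface marker, rose, with 906 ± 347 CPM at steady state (SD, n = 4) and 6537 ± 3844 CPM at day 1 (SD, n = 3) (log2 fold change 2.85 ± 0.41, adjusted p = 0.0019; 2.26 without day 1 replicate 1).

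**Figure D5:**
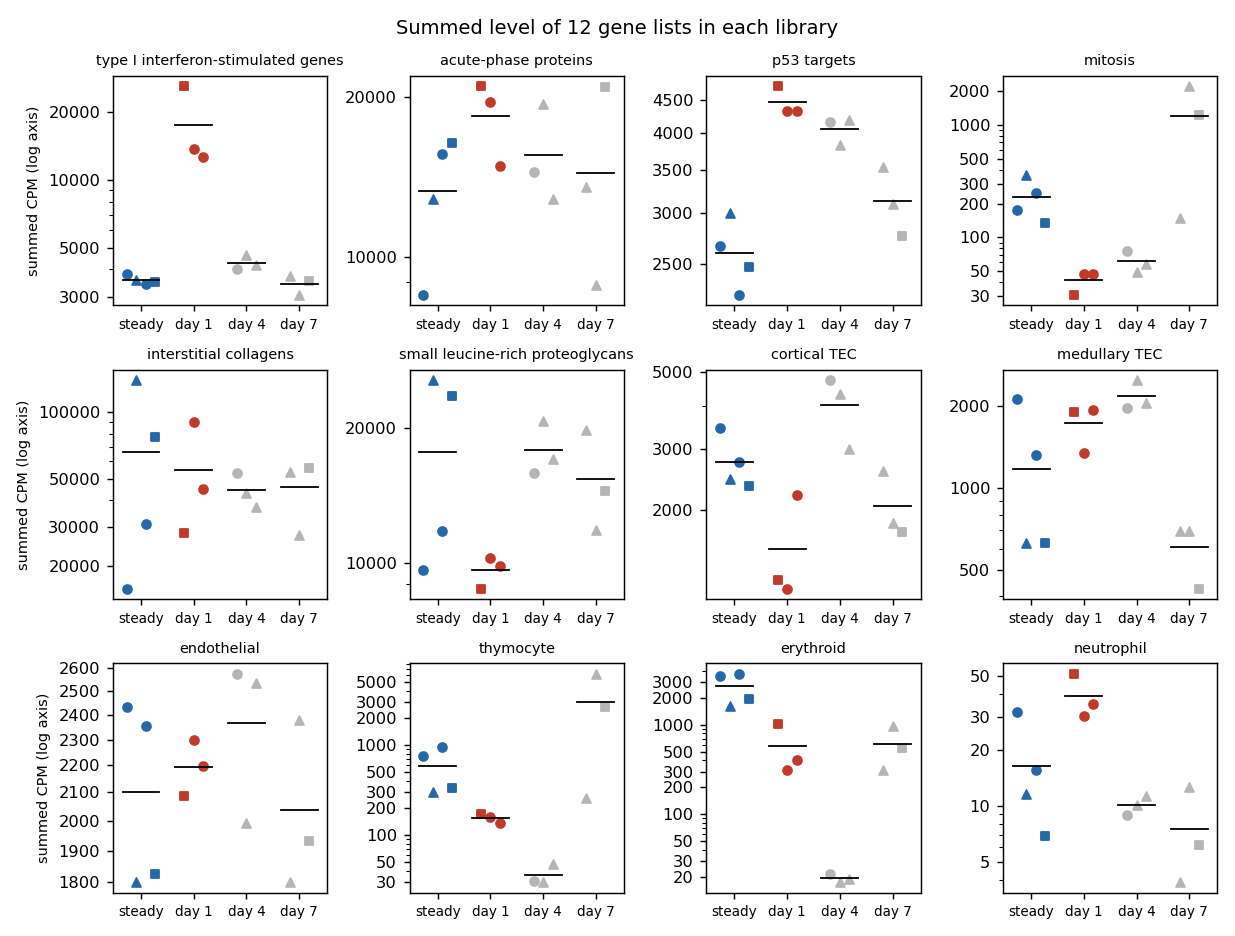
Summed CPM (log axis) of 12 gene lists in each library at steady state (blue), day 1 (red) and days 4 and 7 (grey), with symbols shaped by column tag (circle m, square kk, triangle k3) and bars at group means. Type I interferon-stimulated genes stand out at day 1, at 12709 to 26177 CPM, thymocyte and erythroid genes lie lower at day 1 than at steady state, and collagens spread over all groups.

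Of 16 erythroid genes tested, 7 fell and none rose (median -2.17), and the summed level was 3494, 1608, 3691 and 1932 CPM at steady state and 1009, 316 and 404 CPM at day 1. Alas2, the first enzyme of haem synthesis in red cell precursors, had 3299, 1510.3, 3471 and 1803 CPM at steady state and 966, 287 and 378 CPM at day 1 (log2 fold change -2.21 ± 0.5, adjusted p = 0.0352; -2.92 without day 1 replicate 1) and kept its call in 2 of the 7 leave-outs, where the highest adjusted p was 0.136 without day 1 replicate 2. The mitochondrial iron importer gene Slc25a37 (ENSMUSG00000034248, chr14:69241848-69285112, minus strand) had 172, 76.7, 217 and 122 CPM at steady state and 13.6, 13.9 and 15.1 CPM at day 1 (log2 fold change -3.37 ± 0.41, adjusted p = 0.000578). Fech, the enzyme that inserts iron into haem, had 613, 379.8, 719.9 and 436 CPM at steady state and 58.7, 162 and 162 CPM at day 1 (log2 fold change -2.07 ± 0.37, adjusted p = 0.00897). Other genes of haem synthesis were not called. A list of 14 genes of haem and mitochondrial iron was assembled after its members were seen among the falls. In it 4 fell (Slc25a37, Alas2, Fech and Isca1), and Urod and Cpox had log2 fold changes of 0.11 and 0.26 without passing. Without day 1 replicate 1, 6 erythroid genes fell, and the median was -2.74. Over the 17 alternative settings 1 to 9 erythroid genes fell, with medians from -3.12 to -1.46.

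Thymocyte genes were lower in nearly every comparison of libraries without passing. Of 15, 14 had all 3 day 1 libraries below all 4 controls (median -2.03), against 8.56% of all genes tested, but none fell at the threshold. Over the 17 alternative settings 0 to 13 fell, with 6 in DESeq2 and 13 with only libraries with a tag starting with m. Cd3e had 50.3, 17.2, 54.8 and 17 CPM at steady state and 10.1, 8.36 and 7.48 CPM at day 1 (log2 fold change -2.01 ± 0.74, adjusted p = 0.19). Rag1 had 49.9, 36.4, 129.98 and 28.5 CPM at steady state and 25.9, 23.9 and 17.7 CPM at day 1 (log2 fold change -1.44 ± 0.78, adjusted p = 0.368). The steady-state libraries with a tag starting with m held most, so the median difference was -2.53 among the libraries with a tag starting with m and -1.14 among those with a tag starting with kk. In the fit with the tag family as a factor, 745 genes rose and 321 fell. Other leukocytes gave few calls: none of 15 macrophage and dendritic cell genes, none of 8 B cell genes and none of 8 NK cell genes passed. Of genes outside these lists, 4 immunoglobulin variable genes rose, among them Igkv4-55 at 0, 0, 0.043 and 0.0484 CPM at steady state and 2.8, 14.2 and 4.04 CPM at day 1 (adjusted p = 0.00266).

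Values at days 4 and 7 are given for the largest changes, with the caution that these comparisons share the day 1 libraries by which the genes were chosen. Mean Ifit3 was 1764 CPM at day 1, 96.7 CPM at day 4 and 65.4 CPM at day 7, and mean Lcn2 was 1235, 65.6 and 24.5 CPM. All 20 of the largest rises were lower at both days 4 and 7 than at day 1 at the threshold. Slc25a37, by contrast, fell further, from a mean of 14.2 CPM at day 1 to 3.88 CPM at day 4, before 57.6 CPM at day 7. Ube2c had means of 2.7, 3.04 and 79.2 CPM at days 1, 4 and 7, against 23.8 CPM at steady state. The day 7 libraries differed, with a summed mitosis list of 149, 2196 and 1211 CPM in replicates 1, 2 and 3. Their summed thymocyte list was 262, 6224.5 and 2666 CPM, and its part in the day 7 level was not tested.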

How the data were processed

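Raw gene counts were deposited by the authors as whole numbers for 53379 genes in 13 libraries, together with exonic lengths (bases, not used for tests). According to the submitters' processing notes the authors used Trimmomatic 0.38, STAR 2.7.0e and featureCounts 1.6.3 with GRCm38.p5 (mm10). By the study's methods featureCounts ran with default parameters, which ignore strand, so the separate values of overlapping or antisense genes are uncertain. Coordinates are those of the count table (GRCm38), and symbols and gene types came from the GENCODE annotation. No per-sample column was left out. Columns of PBS controls do not carry the labels' replicate numbers and were used as a group.

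Counts were analysed with edgeR 4.0.16 (R 4.3.3): filterByExpr by condition (19984 genes kept), TMM normalization, and the quasi-likelihood F-test in 1 fit of all 13 libraries with condition as the term. A Benjamini-Hochberg adjusted p of 0.05 or less over all genes tested is written as rose or fell. Standard errors are the log2 fold change divided by the root of F, and values per tag are differences of mean log2(CPM + 0.5). For kk these compare day 1 replicate 1 alone with PBS day 7 replicate 2 alone. The members and lists were chosen with earlier results of these data known, and 10 of the 55 lists were assembled after their members were seen among the changed genes. Named genes are the 20 largest rises and 12 largest falls among protein-coding genes with a mean of at least 5 CPM in the higher condition and no overlap (globin genes left out), the marker genes of each list, the 3 members per list with the smallest p, and further members of a counted list. Genes in no list other than these were named after their values were seen. Some genes, erythroid ones among them, are not reported here, which leaves 8 of the 12 largest falls. Day 1 columns carry the labels' replicate numbers, and PBS columns have replicate numbers of their own. Deviations of day 1 and PBS libraries with the same column number correlated at a mean of -0.00681 over 4 pairs (-0.263 to 0.221). The mean over 8 other pairs was 0.00686 (-0.18 to 0.248). The steps were also run on simulated counts. These held no outlying library and no tag difference, so that run cannot show how such features move the calls.

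Alternatives were DESeq2 1.42.0, RLE normalization, TMM without haematopoietic genes, no filter, at least 10 counts in every library, only the 7 libraries compared, the replicate number as a block, the tag family as a factor, counts thinned to the smallest library, each of the 7 libraries left out in turn, and, chosen after seeing the data, only libraries with a tag starting with m. Python 3.11.15, pandas 2.3.3, numpy 2.4.6 and matplotlib 3.10.9 were used for promoters and plots.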

Additional observations from a re-analysis of the deposited data

Results flagged for a closer look

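Among the 4 steady-state libraries, 1 library lay far from the other 3 in 20 of 240 values examined, by the gap to its nearest neighbour divided by the whole range (above Dixon's 95% critical value for 4 libraries). Chance gives about 12 at a rate of 1 in 20. PBS day 1 replicate 2 was above the others, with these ratios: Ifit3 0.9356, Csf3r 0.8877, Cxcl10 0.8578, Ly6g 0.8685, Nfkbiz 0.8866 and summed level, immediate early and heat shock genes 0.8575. PBS day 7 replicate 2 was above the others, with these ratios: Slfn8 0.8866 and Ddit3 0.8387. PBS day 4 replicate 2 was above the others, with these ratios: Lcn2 0.8294, Apol6 0.8534, Ccl2 0.8919, Serpina3n 0.8378, Selp 0.8605, Saa3 0.95, Timp1 0.915, Lrg1 0.8987, Hp 0.8498 and Tnc 0.9438. PBS day 4 replicate 2 was below the others, with these ratios: Omd 0.9171. PBS day 7 replicate 1 was below the others, with these ratios: Casp4 0.9359.

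Day 4 differed from day 1 in 21 of the 28 named largest changes by the test of that difference (adjusted p of 0.05 or less over all genes tested). The log2 differences of day 4 minus day 1 were Ifit3 -4.19, Ifit3b -4.11, Isg15 -3.90, Phf11b -3.33, Oasl1 -3.49, Mmp3 -2.98, Phf11a -4.63, Lcn2 -4.23, Ccl7 -4.19, Slc25a37 -1.88, Csf3r -4.94, Ifi206 -4.36, Mx1 -5.67, Cxcl10 -4.98, Cxcl5 -3.95, Apol6 -3.22, Mt2 -3.28, Ccl2 -3.94, Olfr56 -3.78, Saa2 -4.87 and Acod1 -4.71. The genes were chosen as changed at day 1 on the same day 1 libraries. Slc25a37 had fallen at day 1 and fell further.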

How the results depend on the processing

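Counts of changed genes depended on the settings. Against 469 changed genes (335 rose, 134 fell), DESeq2 gave 1399 (855 and 544), the fit with only the 7 libraries compared 228 (166 and 62), the replicate block 209 (172 and 37), the tag family as a factor 1066 (745 and 321), and only libraries with a tag starting with m 1607 (986 and 621). The block changed the count although deviations of same-numbered libraries had a mean correlation of only -0.00681, and 208 of its 209 genes were among the 469. RLE normalization gave 470 (356 and 114), which moved the share of rises by less than 10 percentage points. Leaving out 1 library gave 252 to 797 changed genes (198 to 552 rose and 36 to 245 fell): 797 without PBS day 4 replicate 2, 280 without PBS day 7 replicate 1, 274 without PBS day 7 replicate 2, 252 without day 1 replicate 1 and 296 without day 1 replicate 2. No filter, a minimum of 10 counts and thinning gave 555, 504 and 486, and TMM without haematopoietic genes gave 468.

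Over 17 alternatives and 185 named genes, 2845 values stayed on their side of the threshold, 221 lost the call and 61 gained one. Only 1 value changed sign with a call, Plod2 at 1.55 with only libraries with a tag starting with m. The 2845 include uncalled values whose sign changed, for example for Bbc3, which ranged from -0.37 to 0.79. Of the 95 named genes called, 62 kept the call whichever library was left out and 33 lost it at least once. Of 935 alternative list medians, 900 lay within 1 SD of the reported one and 60 had the other sign. Those further away with only libraries with a tag starting with m were class I and immunoproteasome 0.63, chemokines 0.62, unfolded protein response 0.31, glycolysis and hypoxia 0.80, interstitial collagens 0.77, elastic fibres and matricellular proteins 0.83, crosslinking 1.45, proteases 0.83, fibroblast -0.22, erythroid -3.12, B cell -0.49, IFI200 1.38, Schlafen 1.35, Ly6 -0.0406, glycosylation 0.58 and small proteoglycans -0.42. With the tag family as a factor they were IL-6 and IL-1 0.64, glucocorticoid response -0.49 and haem synthesis -0.41, and with at least 10 counts in every library erythroid -1.46. The causes were not tested.

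Leaving out 1 library moved list medians as follows: class I 0.64 to 1.03, chemokines 0.85 to 2.25, Ly6 0.38 to 1.16, Schwann, mesothelial and adipocyte -0.64 to -0.0113, erythroid -2.74 to -1.78, glucocorticoid -0.57 to -0.0130, signal transducers 0.57 to 1.31, neutrophil 0.90 to 1.76, pericyte -0.25 to 0.36, cell death 0.24 to 0.72, small proteoglycans -1.20 to -0.70 and growth factors -0.36 to 0.0612. PBS day 1 replicate 2, PBS day 4 replicate 2 and day 1 replicates 1 and 2 were the libraries that did so.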

Other observations

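Other genes that rose included the complement gene Cfb at 8.27, 22.8, 12.9 and 22.1 CPM at steady state and 56.6, 50.4 and 41.3 CPM at day 1 (log2 fold change 1.58 ± 0.36, adjusted p = 0.0378), with its call kept in 1 of the 7 leave-outs, where the highest adjusted p was 0.142 without day 1 replicate 1. Acod1, which encodes the itaconate-producing enzyme of activated macrophages, had 1.25, 0, 0.495 and 0.242 CPM at steady state and 13.1, 5.15 and 13 CPM at day 1 (log2 fold change 4.35 ± 0.86, adjusted p = 0.0162; 5.42 without PBS day 1 replicate 2), with its call kept in 4 of the 7 leave-outs, where the highest adjusted p was 0.0629 without PBS day 7 replicate 2. Apol6, of the apolipoprotein L family, had 0.68, 2.58, 0.409 and 0.726 CPM at steady state and 26.6, 17.2 and 13.5 CPM at day 1 (log2 fold change 4.11 ± 0.59, adjusted p = 0.00182; 4.99 without PBS day 4 replicate 2). Cxcr2, the neutrophil chemokine receptor gene, had 0.11, 0.050, 0.043 and 0 CPM at steady state and 1.7, 0.604 and 1.65 CPM at day 1 and kept its call in 4 of the 7 leave-outs, where the highest adjusted p was 0.0705 without day 1 replicate 1.

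The parathyroid gene Gcm2 was low, at 1.07, 0.475, 0.129 and 0.0484 CPM at steady state and 1.36, 2.18 and 1.17 CPM at day 1 (log2 fold change 1.8 ± 0.79, adjusted p = 0.265). Adipoq, an adipocyte gene, had 2.13, 53.8, 1.23 and 19.1 CPM at steady state and 10.4, 58.2 and 31.5 CPM at day 1, so PBS day 4 replicate 2 and PBS day 7 replicate 2 held more than the other controls.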
